A study of Rattus norvegicus with 35 samples.

Results

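The genes described are the integrins and laminins of rat liver, taken as every gene whose platform symbol begins with Itga, Itgb, Lama, Lamb or Lamc. They number 34 of the 13439 genes with a probe set of a single symbol. They comprise 13 integrin alpha subunits, 7 integrin beta subunits and 10 laminin chains. The other 4 match by symbol but are neither subunits nor chains (Itgb1bp1, Itgb1bp2, Itgb3bp and Itgbl1). Each gene was read from its brightest probe set over all arrays. Some other integrin genes, such as Itga2, Itga3, Itga4 and Itgb8, were not analysed here.

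Integrins are receptors made of an alpha and a beta subunit that span the plasma membrane and tie the extracellular matrix, or a neighbouring cell, to the actin cytoskeleton. Laminins are cross-shaped trimers of an alpha, a beta and a gamma chain, and they are the organising proteins of basement membranes. In healthy liver, basement membrane surrounds bile ducts and vessels, while the sinusoids lack a continuous one. In chronic biliary injury the duct epithelium expands and matrix is laid down around it and along the sinusoids.

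Liver RNA of 35 rats was hybridised to single-colour Affymetrix arrays. Control rats that underwent a sham procedure in place of bleeding formed the first group (n = 5), and control rats that underwent hemorrhage followed by resuscitation, abbreviated H/R, formed the second (n = 6). Rats with common bile duct ligation, which causes secondary biliary cirrhosis, were studied 4 weeks after surgery, again as sham (n = 5) or H/R (n = 6). The remaining ligated rats received simvastatin, an inhibitor of cholesterol synthesis, by daily gavage of 5 mg/kg over the last 3 days, were studied 1 h after the final gavage, and were sham (n = 5) or H/R (n = 8). Ligated rats received vitamin K weekly. The labels give no strain, sex or age, do not say whether control rats had a sham ligation, and do not say whether rats without simvastatin received vehicle. Each array is a separate sample by its label, with replicate numbers in order of deposition, and the p-values reflect only how far these samples spread.

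Values are log2 signals, and a difference of 1 is a doubling. As a floor, each gene was set against the brightest nonspecific control probe of the array, which averaged 4.51 in control sham, 4.59 in control H/R, 3.64 in ligated sham, 4.00 in ligated H/R, 3.26 in simvastatin sham and 3.32 in simvastatin H/R arrays. Where a group's mean was not above this floor, a fold is given as "at least", and none is given where both groups were at or below it. Simvastatin sham replicate 1 stood apart, with a GAPDH 3' minus 5' probe signal of 2.2 where the other 34 arrays had at most 0.345. The number in every control sample's title ended in 13, that of no untreated ligated sample did, and the labels do not say what the number means. Any effect tied to that number and the effect of ligation in untreated rats cannot be told apart, so differences are also given between simvastatin-treated ligated and control arrays that share the ending 13. Untreated and simvastatin-treated ligated sham arrays shared no title ending, so the same limit holds for simvastatin in sham rats. Untreated and simvastatin-treated ligated H/R arrays shared only the ending 12, with 2 arrays in each group. All 8 hepatocyte markers lay above the floor in every group.

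Ligation raised most laminin chains and a subset of integrin subunits. In sham rats 19 of the 34 genes were higher in ligated than in control livers and 5 were lower, at an adjusted p under 0.05 (limma over all genes, Benjamini-Hochberg), and the other 10 did not pass. Among all genes 25.3% were higher and 22.4% lower by the same rule, 47.6% in all. With the floor applied, 14 members were at least 2-fold higher, against 8.73% of all genes. In H/R rats, a comparison that shares no array with the first, 17 were higher (24.7% of all genes), 5 were lower (22.3%) and 13 were at least 2-fold higher with the floor applied (7.5%); 47.0% of all genes passed in either direction. The 17 genes higher and the 5 lower in H/R rats were all called in the same direction in sham rats, whereas 20.9% of all genes were higher in both comparisons and 15.7% lower in both. The arrays of the 2 groups did not overlap for 16 higher and 2 lower members in sham rats (18.8% and 13.3% of all genes) and for 14 higher and 1 lower in H/R rats (14.3% and 8.94%). The median log2 difference of the members was 0.77 in sham and 0.62 in H/R rats, beside -0.043 and -0.032 for all genes. Across the 34 genes the differences in the 2 comparisons had a Pearson r of 0.98, given as a description since genes are not independent replicates, and 14 of the 17 higher genes had the smaller estimate in H/R rats.

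**Figure D1:**
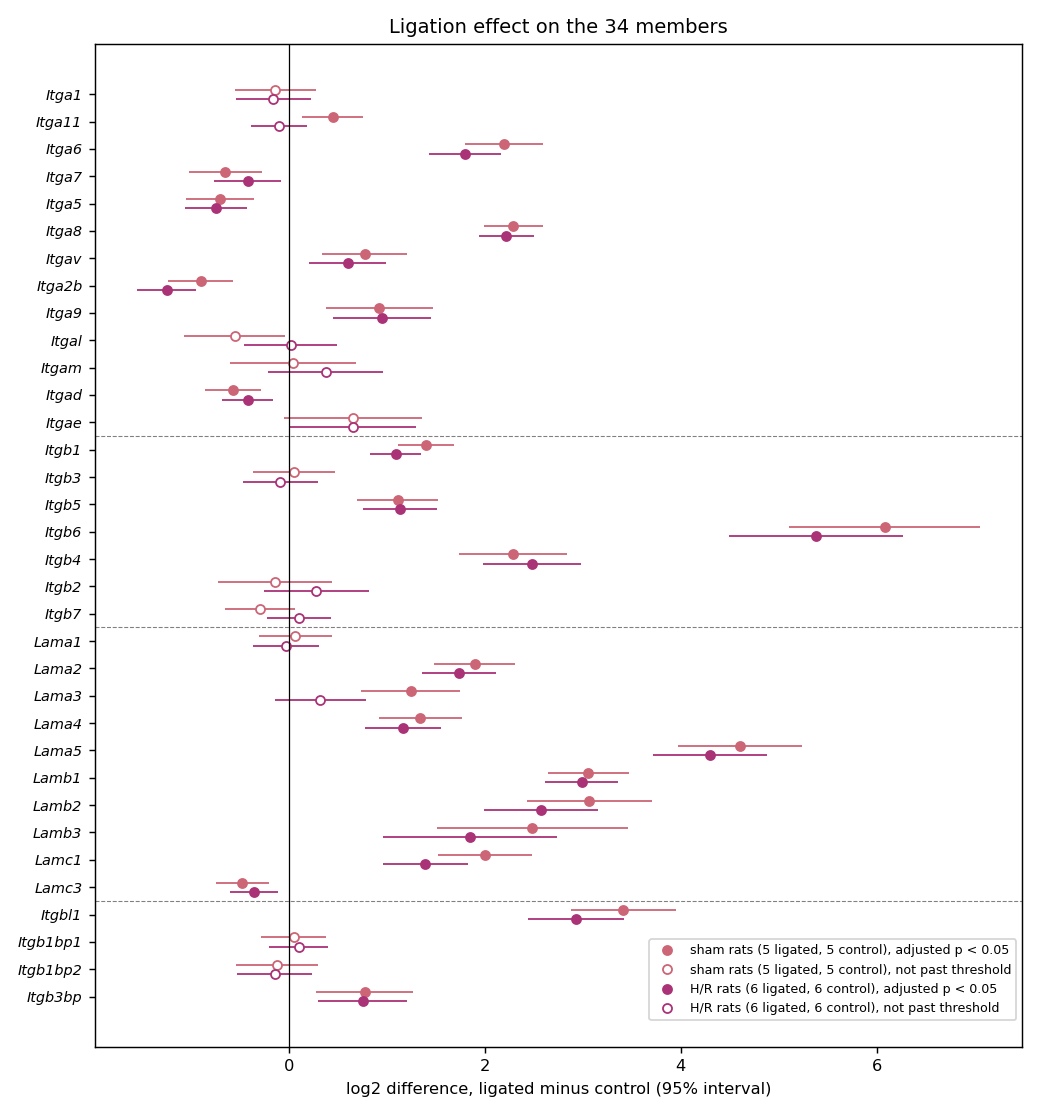
Log2 difference between ligated and control livers (horizontal axis) for the 34 genes (rows: integrin alpha subunits, integrin beta subunits, laminin chains, other products), in sham and in H/R rats, with 95% intervals. Filled points have an adjusted p under 0.05. Itgb6 and Lama5 lie farthest to the right, and 8 laminin chains lie to the right of zero with filled points in sham rats.

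For 26 of the 34 genes RefSeq gives a promoter window, and the 250 bases before the start are shown for 4 genes higher after ligation, Itgb6, Lama5, Lamc1 and Itgb1, to show how their sequence differs. Each is written 5' to 3' in the direction of the gene, from build GRCr8, at chr3:65530334-65530583 on the minus strand, chr3:187695975-187696224 on the minus strand, chr13:68051987-68052236 on the minus strand and chr19:73602027-73602276 on the plus strand. Capitals mark the GC box GGGCGG on either strand, the core letters bound by Sp1-type factors.
Itgb6: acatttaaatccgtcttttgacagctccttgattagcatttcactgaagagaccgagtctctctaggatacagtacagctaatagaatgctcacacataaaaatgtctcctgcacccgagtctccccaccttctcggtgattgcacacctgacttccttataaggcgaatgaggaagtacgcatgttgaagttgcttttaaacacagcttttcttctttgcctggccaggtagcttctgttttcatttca
Lama5: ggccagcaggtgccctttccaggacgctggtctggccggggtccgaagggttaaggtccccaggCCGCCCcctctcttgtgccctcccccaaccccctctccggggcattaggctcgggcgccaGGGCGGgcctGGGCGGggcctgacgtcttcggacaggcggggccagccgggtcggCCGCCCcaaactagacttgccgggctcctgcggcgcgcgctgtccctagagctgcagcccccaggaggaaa
Lamc1: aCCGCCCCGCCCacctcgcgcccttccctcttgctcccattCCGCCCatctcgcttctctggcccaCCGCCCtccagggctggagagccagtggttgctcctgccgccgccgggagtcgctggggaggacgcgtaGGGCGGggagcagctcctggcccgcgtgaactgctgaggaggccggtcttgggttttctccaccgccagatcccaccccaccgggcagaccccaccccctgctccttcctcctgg
Itgb1: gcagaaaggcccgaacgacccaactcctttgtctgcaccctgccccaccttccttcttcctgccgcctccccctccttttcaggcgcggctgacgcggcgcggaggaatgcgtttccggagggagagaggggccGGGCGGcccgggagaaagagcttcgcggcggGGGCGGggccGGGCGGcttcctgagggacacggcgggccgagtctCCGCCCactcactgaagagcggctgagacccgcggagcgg
The Lama5, Lamc1 and Itgb1 windows held 4, 5 and 4 GC boxes and were 72.8%, 71.2% and 71.2% G and C. The Itgb6 window held none and was 43.2% G and C, and its start lies within the RefSeq gene span, downstream of other annotated starts. A GC box occurred in 12 of the 26 windows (46.2%) and in 30.5% of all 33469 windows. The median G and C content was 57.6% in the 26 windows and 51.2% in all windows. Its part in the GC box share was not tested. The AP-1 letters TGANTCA occurred in 1 of the 26, Lama3, with 3 matches, and in 6.34% of all windows. The TEAD letters GGAATG occurred in 3 (Itgb1, Itgb1bp1 and Lamc1) and in 12.1% of all windows, and TATAAA in 2 (Itgb7 and Lama4) and in 12.9%. Both strands were searched for each motif, and a match describes letters only.

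Of the 10 laminin chains, 8 rose with ligation in sham rats, 1 fell (Lamc3) and 1 did not pass (Lama1); in H/R rats 7 rose, 1 fell and 2 did not pass. Lama5 encodes the alpha chain of the laminins under most mature epithelia. Its log2 signal was 4.54, 4.30, 3.43, 3.14 and 3.76 in control sham and 8.52, 8.76, 7.44, 9.05 and 8.41 in ligated sham arrays. The groups were far apart, with every control value near or under the floor. The difference was 4.60 ± 0.31 (SE), at least 14.3-fold higher (adjusted p = 1.14e-13), and in H/R rats 4.30 ± 0.28 (SE), at least 10.9-fold (adjusted p = 5.50e-14). Between arrays of title ending 13 Lama5 was at least 14.2-fold higher in sham and at least 14.7-fold in H/R rats.

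Lamb1 encodes the widespread beta chain that joins Lamc1 in the commonest trimers. It read 6.11, 6.11, 6.15, 5.23 and 6.11 in control sham arrays and 9.18, 9.17, 8.28, 9.31 and 9.06 in ligated sham arrays. Control replicate 4 lay below the rest of its group and ligated replicate 3 below the rest of its own, and the groups did not overlap. Lamb1 rose 8.32-fold in sham rats (3.06 ± 0.20 (SE), adjusted p = 6.03e-14) and 7.94-fold in H/R rats (2.99 ± 0.18 (SE), adjusted p = 9.50e-15). Lamb2, the beta chain typical of vessel and nerve-muscle basement membranes, read 5.19, 4.86, 4.56, 4.47 and 4.50 in control sham and 8.03, 8.15, 6.38, 8.50 and 7.82 in ligated sham arrays. Here too ligated replicate 3 was the lowest of its group, and it still exceeded every control array. The rise of Lamb2 was 8.36-fold in sham rats (3.06 ± 0.31 (SE)) and 5.95-fold in H/R rats (2.57 ± 0.29 (SE)), with adjusted p-values of 1.05e-09 and 5.99e-09. In controls Lamb2 lay above the floor of the array itself in 2 of 5 sham and 5 of 6 H/R arrays. The sham fold of Lamb2 thus rests on control signals near the floor.

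Lamc1, the gamma chain found in most laminins, read 7.40, 7.62, 7.26, 7.54 and 7.01 in control sham and 9.42, 9.58, 8.80, 9.81 and 9.23 in ligated sham arrays. These groups did not overlap either, and Lamc1 was well above the floor in control liver as well. It rose 4-fold in sham rats (adjusted p = 1.60e-08) and 2.62-fold in H/R rats (adjusted p = 2.27e-06). The H/R estimate of Lamc1 was the smaller, 1.39 ± 0.21 (SE) against 2.00 ± 0.23 (SE). In control H/R livers Lamc1 read lowest 7.22, median 7.72 and highest 8.23, and in ligated H/R livers lowest 8.47, median 9.20 and highest 9.39.

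Lama2, the alpha chain of muscle and mesenchymal basement membranes, rose 3.72-fold in sham and 3.33-fold in H/R rats (adjusted p = 3.37e-09 and 3.12e-09). Lama4, the alpha chain of vessel walls, rose 2.54-fold and 2.24-fold (adjusted p = 2.65e-06 and 5.98e-06). Neither gene's ligated arrays overlapped the control arrays in either comparison. Lama3 and Lamb3 encode chains of the laminin that anchors epithelia through hemidesmosomes. Lamb3 read 3.78, 3.57, 4.00, 3.49 and 3.47 in control sham and 5.81, 6.75, 5.14, 6.81 and 6.22 in ligated sham arrays. All control values were under the floor and all ligated values above it. Lamb3 rose at least 3.12-fold in sham rats (adjusted p = 6.79e-05) and at least 1.77-fold in H/R rats (adjusted p = 7.62e-04). In H/R rats 1 ligated array lay among the controls.

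Lama3 read 2.86, 3.38, 3.85, 3.24 and 3.35 in control sham and 5.14, 4.79, 3.74, 4.68 and 4.54 in ligated sham arrays. Ligated replicate 3 lay within the control range and the other 4 ligated arrays above it. The difference of Lama3 was 1.24 ± 0.25 (SE) (adjusted p = 1.14e-04) in sham rats, at least 1.05-fold higher, and in H/R rats 0.32 ± 0.23 (SE) (adjusted p = 0.254), which did not pass. The difference between these 2 effects was itself tested as the ligated minus control difference of H/R effects, -0.92 ± 0.34 (SE), and did not pass (adjusted p = 0.727). Lama1, the embryonic alpha chain, lay under the floor in both sham groups, at 3.28 ± 0.22 (SD, n = 5) and 3.35 ± 0.51 (SD, n = 5).

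**Figure D2:**
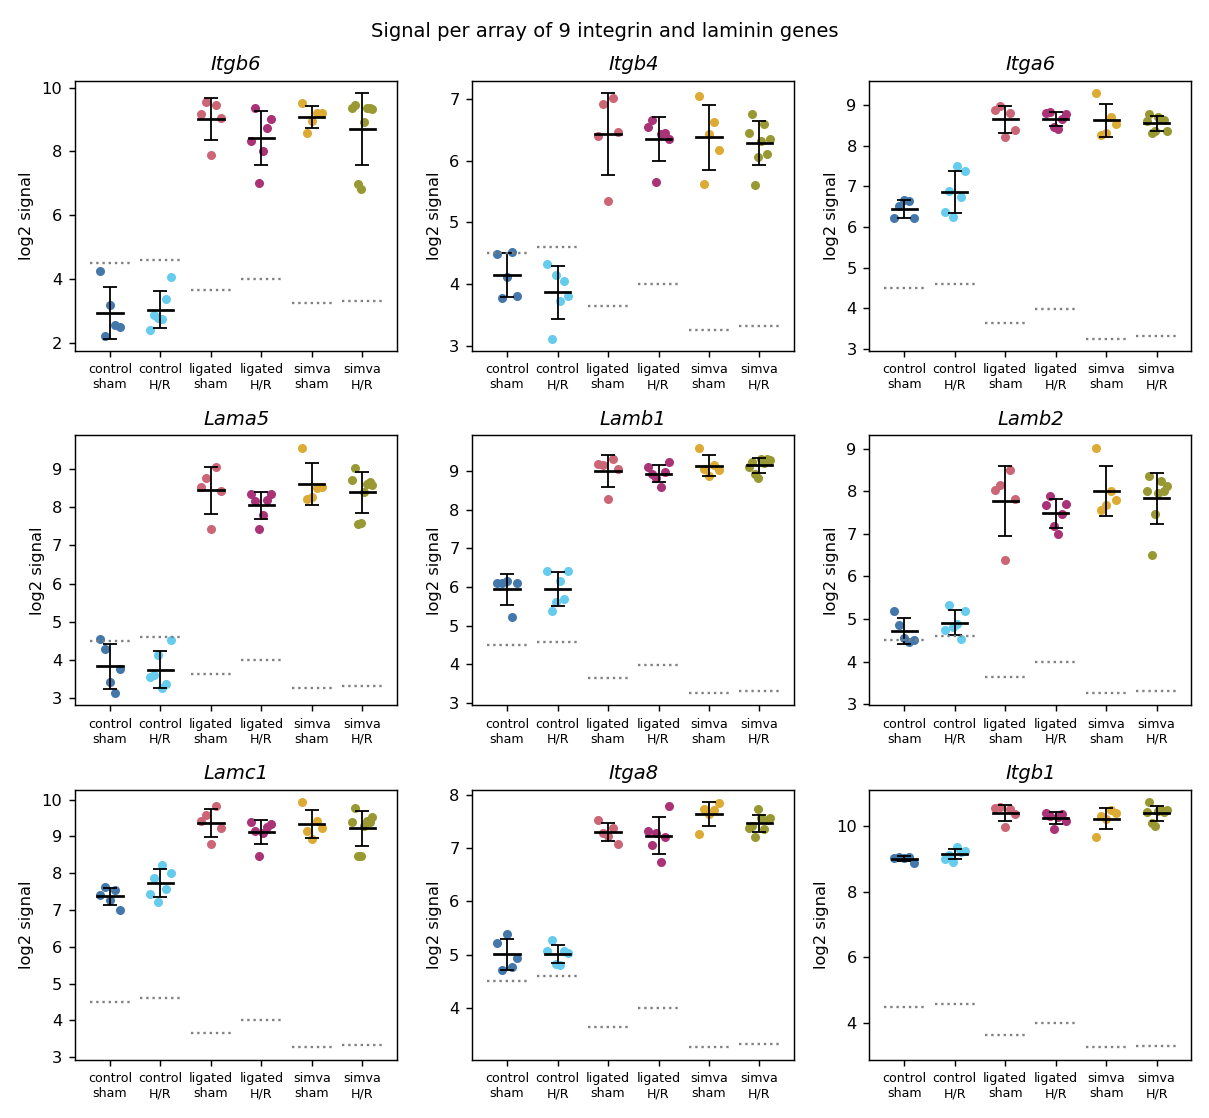
Log2 signal of each array (points) by group for 9 integrin and laminin genes, with group mean and SD (black) and the mean brightest nonspecific probe of the group (dotted); simva stands for ligated rats given simvastatin. For all 9 genes each untreated ligated array lies above every control array in the sham and in the H/R comparison, and the 4 ligated groups overlap.

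The epithelial and matrix beta subunits rose with ligation, Itgb6, Itgb4, Itgb1 and Itgb5, in sham and in H/R rats, while Itgb2, Itgb3 and Itgb7 did not pass in either. Itgb6 encodes the subunit that pairs with the Itgav product into an epithelial receptor that activates latent TGF-beta. It read 4.25, 2.23, 3.20, 2.57 and 2.48 in control sham and 9.16, 9.56, 7.90, 9.47 and 9.05 in ligated sham arrays. All control values lay under the mean floor of their group, and the lowest ligated array was replicate 3. In H/R rats Itgb6 read lowest 2.42, median 2.83 and highest 4.08 in controls and lowest 7.01, median 8.55 and highest 9.36 in ligated livers. The H/R difference was 5.38 ± 0.44 (SE), at least 14.2-fold higher (adjusted p = 6.43e-12). Against the control arrays of the same title ending, simvastatin-treated ligated livers were at least 24-fold higher in Itgb6 in sham and at least 19.8-fold in H/R rats. Its partner Itgav read 4.47, 5.39, 5.28, 5.62 and 4.63 in control sham and 5.62, 5.86, 5.80, 6.07 and 5.90 in ligated sham arrays. The ranges touched closely without overlapping in sham rats and overlapped in H/R rats. Itgav rose 1.71-fold (adjusted p = 0.00322) and 1.51-fold (adjusted p = 0.0117), and both calls were lost when the arrays were quantile normalized again. Between arrays of title ending 13 its sham difference was 0.60 (adjusted p = 0.0672).

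Itga6 and Itgb4 encode the laminin receptor of hemidesmosomes, and Itga6 also pairs with Itgb1. Itga6 read 6.22, 6.52, 6.66, 6.65 and 6.22 in control sham and 8.88, 8.97, 8.21, 8.80 and 8.39 in ligated sham arrays. Ligated arrays were all above control arrays, by 4.58-fold at the mean (adjusted p = 6.67e-11). In H/R rats the rise of Itga6 was 3.48-fold (adjusted p = 6.82e-10), with control arrays reaching 7.50. Itgb4 read 4.49, 3.78, 4.12, 4.52 and 3.80 in control sham and 6.41, 6.92, 5.35, 7.02 and 6.46 in ligated sham arrays. In 2 of the 5 control arrays Itgb4 lay above the floor of the array itself, the control mean lay under the mean floor, and every ligated array was above its floor. Itgb4 rose at least 3.37-fold in sham (adjusted p = 1.87e-08) and at least 3.37-fold in H/R rats (adjusted p = 5.44e-10).

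Itgb1, the partner of most alpha subunits, rose on top of a control signal far above the floor, with 9.01, 9.06, 9.03, 9.07 and 8.86 in control sham and 10.55, 10.59, 9.98, 10.53 and 10.36 in ligated sham arrays. The control arrays lay close together and all ligated arrays above them. The rise was 2.63-fold (1.40 ± 0.14 (SE), adjusted p = 6.72e-10) in sham and 2.13-fold (1.09 ± 0.13 (SE), adjusted p = 1.65e-08) in H/R rats. Itga8, an alpha subunit of smooth muscle and stellate cells that pairs with Itgb1, read 5.22, 4.71, 5.40, 4.77 and 4.94 in control sham and 7.53, 7.28, 7.22, 7.37 and 7.08 in ligated sham arrays. The gap between the groups was wide beside their spread. Its rise was 4.89-fold in sham (adjusted p = 5.41e-14) and 4.66-fold in H/R rats (adjusted p = 9.40e-15), and a second Itga8 probe set differed by 2.16 in sham rats. Itgb5, which pairs with Itgav as a vitronectin receptor, rose 2.16-fold and 2.2-fold (adjusted p = 3.53e-05 and 6.60e-06). Itga9, a subunit that binds tenascin and osteopontin, rose 1.89-fold and 1.93-fold (adjusted p = 0.00514 and 0.00186), and both of its calls were lost under quantile normalization, as was the sham call between arrays of title ending 13 (0.48, adjusted p = 0.144). In controls Itga9 lay above the floor of the array itself in 3 of 5 sham and 3 of 6 H/R arrays.

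Itga2b, the alpha subunit of the platelet fibrinogen receptor, fell after ligation. It read 5.45, 5.22, 4.80, 5.48 and 5.49 in control sham and 4.34, 4.14, 4.72, 4.41 and 4.31 in ligated sham arrays, and in H/R rats lowest 5.08, median 5.43 and highest 5.70 in controls and lowest 3.91, median 4.10 and highest 4.62 in ligated livers. No ligated array reached the lowest control array of its comparison. The fall was 1.87-fold in sham (-0.90 ± 0.16 (SE), adjusted p = 2.66e-05) and 2.38-fold in H/R rats (-1.25 ± 0.15 (SE), adjusted p = 2.16e-08). Itga2b lay above the floor of the array itself in 4 of 5 ligated sham and 3 of 6 ligated H/R arrays. Both folds thus rest on ligated signals near the floor. The nonspecific floor was also lower in ligated than in control arrays, at 3.64 against 4.51 in sham rats, and its part in the fall was not tested. Of 5 platelet markers, 1 was higher and 1 lower after ligation in sham rats, beside 25.3% and 22.4% of all genes. Only 1 of the 5 lay above the floor in control sham and 2 in ligated sham livers. The other 4 genes called lower, Itga5 (fibronectin receptor), Itga7 (muscle laminin receptor), Itgad (a leukocyte subunit) and Lamc3 (a laminin gamma chain), had means at or below the floor in controls. Their log2 differences in sham rats were -0.70, -0.65, -0.57 and -0.48 beside a floor of 4.51 in control and 3.64 in ligated arrays, and no fold is given. Itga11, a fibroblast collagen receptor, was called higher in sham rats (0.45 ± 0.15 (SE), adjusted p = 0.0156) with both groups under the floor, and in H/R rats its difference was -0.10 (adjusted p = 0.565).

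**Figure D3:**
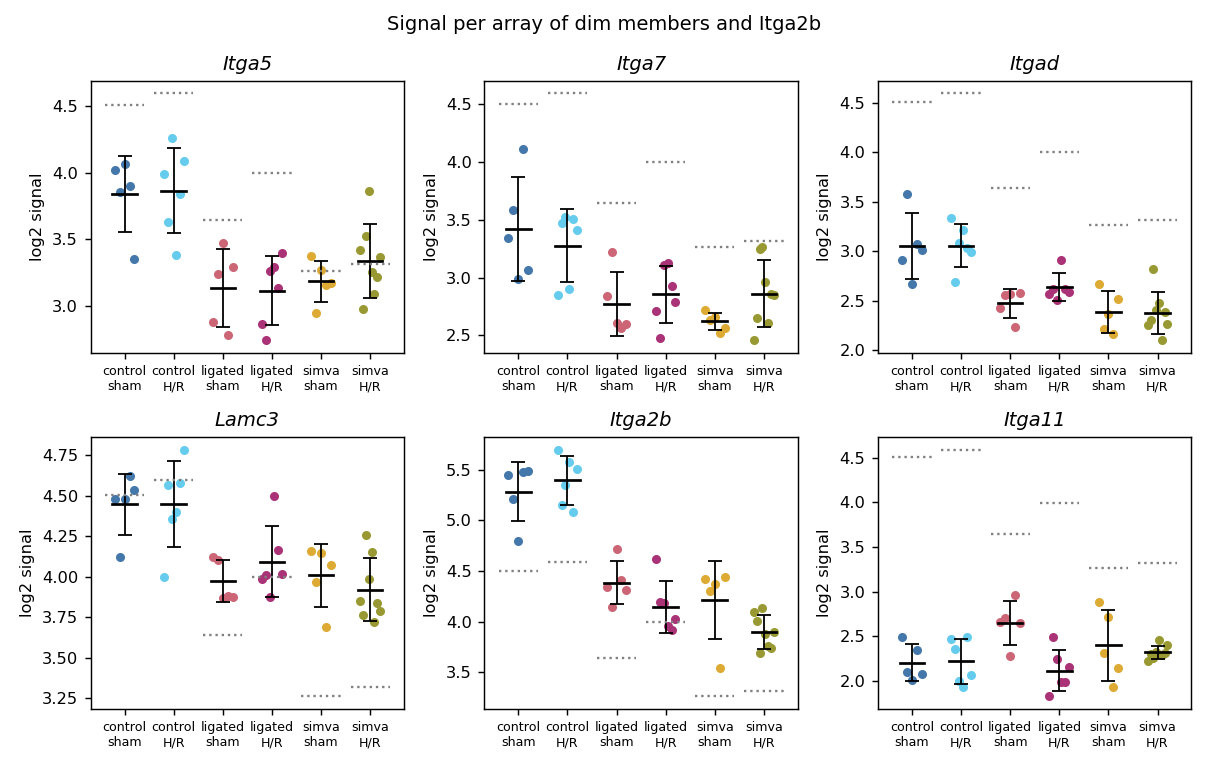
Log2 signal of each array (points) by group for Itga2b and 5 members whose mean control signal lay at or under the nonspecific floor, with group mean and SD (black) and the mean brightest nonspecific probe of the group (dotted). The dotted floor is itself lower in all ligated groups, and the Itga2b points of both control groups lie above it.

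The collagen receptor subunit Itga1, which in liver is found on stellate and endothelial cells, did not pass in either comparison. Control sham livers averaged 7.66 ± 0.21 (SD, n = 5) and ligated sham livers 7.52 ± 0.31 (SD, n = 5), a difference of -0.14 (95% interval -0.55 to 0.27). Of the leukocyte subunits, Itgb2, Itgal, Itgam, Itgae and Itgb7 did not pass either. The Itgb2 difference, for the shared beta subunit of neutrophils, macrophages and lymphocytes, was -0.14 (95% interval -0.73 to 0.44) in sham and 0.28 (95% interval -0.25 to 0.81) in H/R rats. For Itgal, the lymphocyte partner of Itgb2, it was -0.56 (95% interval -1.07 to -0.04) in sham rats, and for Itgam, the myeloid partner, 0.04 (95% interval -0.60 to 0.69). The interval of Itgal lay just under zero but its adjusted p was 0.0715. Itgam averaged 4.15 in control sham livers, under the floor. It lay above the floor of the array itself in 2 of 5 control sham and 3 of 5 ligated sham arrays. Itgae, the subunit of intraepithelial lymphocytes that binds E-cadherin, averaged 5.34 ± 0.30 (SD, n = 5) in sham controls and 5.99 ± 0.47 (SD, n = 5) after ligation (adjusted p = 0.119). Against the control arrays of the same title ending, however, simvastatin-treated ligated livers were higher in Itgae and passed. The rise there was 1.8-fold in sham (adjusted p = 0.00691) and 1.9-fold in H/R rats (adjusted p = 4.42e-04). Itgb3, shared by platelets and Itgav, differed by 0.05 (95% interval -0.37 to 0.47), and Itgb7 by -0.30 (95% interval -0.65 to 0.06) with both means under the floor.

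Among the 4 products that are neither subunits nor chains, Itgbl1, a secreted protein with integrin-like repeats, read 3.46, 2.97, 2.71, 3.24 and 3.19 in control sham and 6.64, 6.55, 5.74, 6.91 and 6.79 in ligated sham arrays. Control arrays were all under the floor and ligated arrays all above it. It rose at least 4.06-fold in sham (adjusted p = 2.20e-12) and at least 3.5-fold in H/R rats (adjusted p = 7.71e-12). Itgb3bp, which encodes a centromere protein, rose 1.71-fold and 1.68-fold (adjusted p = 0.00934 and 0.00603). Itgb1bp1, a protein that binds the tail of the Itgb1 product, differed by 0.05 (95% interval -0.29 to 0.38) in sham rats, and Itgb1bp2, a muscle chaperone, by -0.12 (95% interval -0.54 to 0.30) under the floor.

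Genes that work with these receptors were read from lists of general knowledge. The counts of each list, here and in the next paragraph, stand beside the shares over all genes. Those were 25.3% higher and 22.4% lower in sham rats, and 24.7% and 22.3% in H/R rats. Of 15 other basement membrane components and laminin receptors, 11 were higher and 1 lower after ligation in sham rats, and the same counts held in H/R rats. Nid1, which links laminin to collagen IV, rose 5.75-fold in sham rats (adjusted p = 3.25e-12). The collagen IV chains Col4a1, Col4a2 and Col4a5 rose 6.07-fold, 6.23-fold and 5.18-fold (adjusted p = 6.15e-10, 3.00e-09 and 1.10e-09). Of 11 other integrin ligands and latent TGF-beta genes, 6 were higher and 1 lower in sham and 9 and 1 in H/R rats. Spp1, which encodes the ligand osteopontin, rose 28.7-fold (adjusted p = 1.14e-08), and Mfge8, a ligand of Itgav receptors, 3.15-fold (adjusted p = 5.21e-09). Ltbp1, which tethers latent TGF-beta to matrix, rose 9.37-fold (adjusted p = 4.22e-15) and Tgfb2 at least 12.5-fold (adjusted p = 3.33e-08). The hepatocyte product Vtn, vitronectin, was the gene that fell, by 1.83-fold (adjusted p = 3.50e-04).

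Of 21 genes of intracellular adaptors and kinases linked to integrins, 16 were higher and 0 lower in sham rats (5 did not pass), and 13 were higher and 1 lower in H/R rats. Fblim1, a filamin-binding adaptor, rose at least 4.24-fold, and the tensins Tns1 and Tns3 rose 5.43-fold and 2.84-fold in sham rats (adjusted p = 1.80e-12, 3.25e-11 and 8.58e-12). Pxn, which encodes paxillin, rose 3.27-fold in sham rats (adjusted p = 9.99e-09). The kinase genes Ilk and Ptk2 differed by -0.21 and 0.03 in sham rats and did not pass in that comparison. Of 6 ligands of leukocyte integrins, 4 were higher and 2 lower in sham rats. Cdh1, the epithelial E-cadherin bound by the Itgae product, rose 3.45-fold (adjusted p = 4.81e-09), and F11r and Vcam1 rose 2.22-fold and 1.94-fold (adjusted p = 2.66e-08 and 0.00372), while Icam1, the ligand of Itgal and Itgam receptors, fell 1.87-fold (adjusted p = 0.0155).

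Markers of bile duct and stellate cells were higher in the same livers, and the counts of each marker list stand beside 25.3% of all genes higher and 22.4% lower. Of 9 cholangiocyte markers 8 were higher after ligation in sham rats, and their mean log2 signal ran from 4.04 to 4.85 in control sham and 7.63 to 8.92 in ligated sham arrays, with 4 and 8 of the 9 above the floor. Of 10 stellate and myofibroblast markers 9 were higher, with list means of 5.13 to 5.46 and 6.25 to 7.40. Hepatocyte markers had 0 higher and 3 lower of 8, with list means of 12.03 to 12.16 and 11.71 to 12.05. Of 8 macrophage markers 4 were higher and 1 lower, of 7 endothelial markers 2 and 2, of 9 lymphocyte markers 3 and 2, of 3 mesothelial markers 1 and 0, and of 5 neutrophil markers none passed. The endothelial and lymphocyte counts are near the shares over all genes. In bulk liver RNA, more cells of a type and more RNA per cell cannot be told apart, and the part of cell makeup in the rise of the integrins and laminins was not tested.

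Neither H/R nor simvastatin moved any of the 34 genes past the threshold. In control rats H/R called 0 members (0.856% of all genes passed), in untreated ligated rats 0 (0.134%) and in simvastatin-treated ligated rats 0 (0.0%), by limma with Benjamini-Hochberg adjustment. At an unadjusted p under 0.05 there were 4 members in control rats (Itgav, Itgb7, Itgb5 and Itga6; 12.2% of all genes), 4 in untreated ligated rats (Itga11, Lama3, Itgb2 and Itgam; 10.4%) and 2 in simvastatin-treated rats (Itgav and Itga2b; 5.39%). Simvastatin called 0 members in sham (0.781% of all genes) and 0 in H/R ligated rats (1.35%), with 3 (Lama3, Itga8 and Itgb3bp; 10.8% of all genes) and 6 (Itgam, Itgb2, Lama2, Itgbl1, Itgal and Itgad; 14.4%) at an unadjusted p under 0.05. Whether H/R acted differently in ligated than in control rats, or in ligated rats with than without simvastatin, was tested too, and 0 members passed in each (0.00744% of all genes in both). At an unadjusted p under 0.05 the first had 2 members (Lama3 and Itga11; 5.46% of all genes). The second had 5 at that p (Itga11, Itgal, Lama3, Itgb2 and Itgam; 4.87%), and 5 of 34 is above that share. In the comparisons of H/R and of simvastatin the member counts at that p were near the shares over all genes. Without simvastatin sham replicate 1 the simvastatin comparison in sham rats again called 0 members.

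For Itgb6 and Lama5 the signals of the 4 ligated groups overlapped. Itgb6 read lowest 8.57, median 9.21 and highest 9.51 in simvastatin sham and lowest 6.84, median 9.34 and highest 9.46 in simvastatin H/R arrays. The H/R difference of Itgb6 in untreated ligated rats was -0.61 (95% interval -1.54 to 0.33), and the simvastatin difference was 0.07 (95% interval -0.91 to 1.04) in sham and 0.28 (95% interval -0.55 to 1.12) in H/R rats. For Lama5 the simvastatin difference was 0.17 (95% interval -0.46 to 0.81) in sham rats, where simvastatin sham replicate 1 was the highest array at 9.55, and 0.35 (95% interval -0.20 to 0.89) in H/R rats. These intervals leave room for changes of either sign for both genes. Lamb1 was known more closely, with simvastatin differences of 0.15 (95% interval -0.26 to 0.56) and 0.22 (95% interval -0.13 to 0.57).

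Lama3 was the laminin chain with the lowest p under simvastatin in sham rats. It read 3.25, 3.84, 4.22, 3.75 and 3.87 in simvastatin sham arrays, against 5.14, 4.79, 3.74, 4.68 and 4.54 in untreated ligated sham arrays. Of the 5 untreated arrays, 4 exceeded every simvastatin array. The difference was -0.79 ± 0.25 (SE) (adjusted p = 0.158), and it passed with array weights (adjusted p = 0.0424) or without ligated sham replicate 3 (adjusted p = 0.0421). In H/R rats the simvastatin difference of Lama3 was -0.06 (95% interval -0.50 to 0.37). The Itga8 difference with simvastatin was 0.34 ± 0.15 (SE) in sham (adjusted p = 0.384) and 0.24 ± 0.13 (SE) in H/R rats (adjusted p = 0.404), neither past the threshold. Itgb3bp read 7.33, 7.25, 7.59, 7.93 and 7.57 in simvastatin sham arrays and 7.15, 6.90, 6.91, 7.12 and 6.96 in untreated ligated sham arrays. These groups did not overlap, and the difference of 0.52 ± 0.24 (SE) did not pass (adjusted p = 0.429).

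The Itgb2 and Itgam pair, which forms the main adhesion receptor of neutrophils and monocytes, had its highest mean in untreated ligated H/R livers. Itgb2 read 6.31, 6.20, 6.65, 6.42 and 6.04 in ligated sham arrays, lowest 6.28, median 7.03 and highest 7.59 in ligated H/R arrays, and lowest 5.87, median 6.30 and highest 6.89 in simvastatin H/R arrays. All of these ranges overlapped. The simvastatin difference in H/R rats was -0.64 ± 0.25 (SE) for Itgb2 (adjusted p = 0.206), -0.78 ± 0.27 (SE) for Itgam (adjusted p = 0.147) and -0.50 ± 0.22 (SE) for Itgal (adjusted p = 0.272), none past the threshold. Itgam averaged 4.86 in ligated H/R arrays beside a floor of 4.00, and 4.07 in simvastatin H/R arrays beside 3.32. The list mean of 5 neutrophil markers ran from 4.60 to 5.09 in ligated sham, 4.46 to 7.47 in ligated H/R and 4.41 to 5.71 in simvastatin H/R arrays, and its part in the leukocyte subunits was not tested. Of the lists of partner genes, 2 genes passed under simvastatin in H/R rats. The adaptor Tns1 was 1.72-fold higher (adjusted p = 0.0199), and Tnc, a matrix ligand of the Itga9 receptor, was at least 1.55-fold lower (adjusted p = 0.0486). Tnc ran from 3.28 to 5.21 in ligated H/R arrays, around the mean floor of 4.00 there. The floor was lower in simvastatin H/R arrays, at 3.32, and its part in the Tnc difference was not tested.

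**Figure D4:**
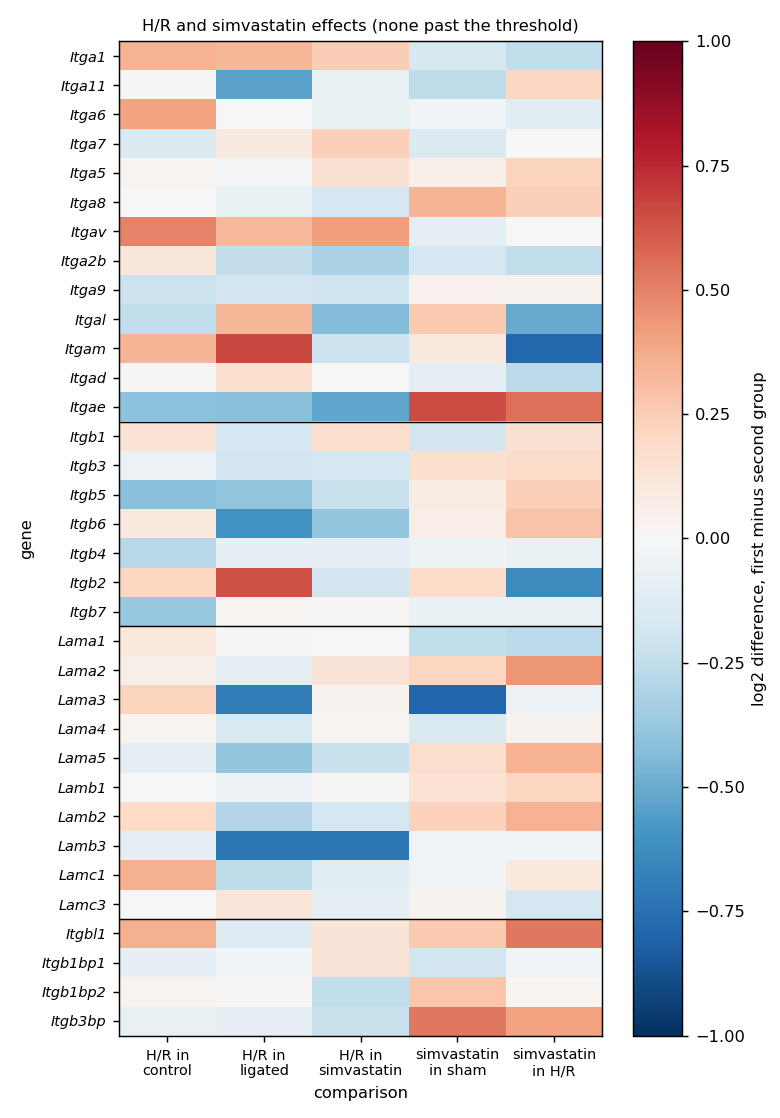
Log2 difference (colour, red higher and blue lower) of the 34 genes (rows) in 5 comparisons (columns): H/R minus sham in control, untreated ligated and simvastatin-treated ligated rats, and simvastatin minus no simvastatin in ligated sham and H/R rats. None passed an adjusted p of 0.05; Itgam and Itgb2 have the darkest red under H/R in ligated rats and are blue under simvastatin in H/R rats.

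Across the 24 ligated arrays 6 pairs of subunits or chains that form one protein, and Itgb6 and Itgb4 each with the duct keratin Krt19, were compared as deviations from their group mean, with permutation p-values adjusted over the 8 pairs. The hemidesmosome pair Itga6 and Itgb4 rose and fell together, with r = 0.77 (adjusted p = 5.60e-04) and rho = 0.70 (adjusted p = 0.00314). The laminin chains Lamb1 and Lamc1 did so too, with r = 0.79 (adjusted p = 4.80e-04) and rho = 0.81 (adjusted p = 8.00e-05). Without the 2 arrays farthest from the median of the first gene, r was 0.63 and 0.75. For the myeloid pair Itgam and Itgb2 the values were r = 0.71 (adjusted p = 0.00614) and rho = 0.72 (adjusted p = 0.00248), with r of 0.60 without the 2 farthest arrays. Itgal and Itgb2 had r = 0.62 (adjusted p = 0.0192) and rho = 0.57 (adjusted p = 0.0289), and Lama3 and Lamb3 had r = 0.49 (adjusted p = 0.0192) and rho = 0.29 (adjusted p = 0.177). Without the 2 farthest arrays, with 22 arrays left, r was 0.48 and 0.29 and neither call held. Without simvastatin sham replicate 1 both passed, with r of 0.60 and 0.64. No other pairs of genes were compared, so whether partners varied together more than other genes was not tested.

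Itgav and Itgb6, which form one receptor, ran in opposite directions, with r = -0.53 (adjusted p = 0.0192) and rho = -0.49 (adjusted p = 0.0273). Without the 2 arrays farthest from the Itgav median, r was -0.43 (adjusted p = 0.0678), so this call too did not hold without them, with r of the same sign and a similar size. Itgb6 followed Krt19, the keratin of bile duct epithelium, with r = 0.70 (adjusted p = 0.00171) and rho = 0.73 (adjusted p = 0.0012), and Itgb4 followed it with r = 0.56 (adjusted p = 0.00723) and rho = 0.54 (adjusted p = 0.0115). Without the 2 farthest arrays r was 0.58 and 0.51. The lowest Itgb6 signals were 7.90 in ligated sham replicate 3, 7.01 in ligated H/R replicate 3, and 6.97 and 6.84 in simvastatin H/R replicates 3 and 4, the lowest of their groups. The mean of the 9 cholangiocyte markers was also lowest of the group in these arrays, at 7.63, 7.55, 7.24 and 7.63, as was Lamb3, at 5.14, 3.94, 3.60 and 3.32. These arrays were chosen after their values were seen, and no test was made of them.

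**Figure D5:**
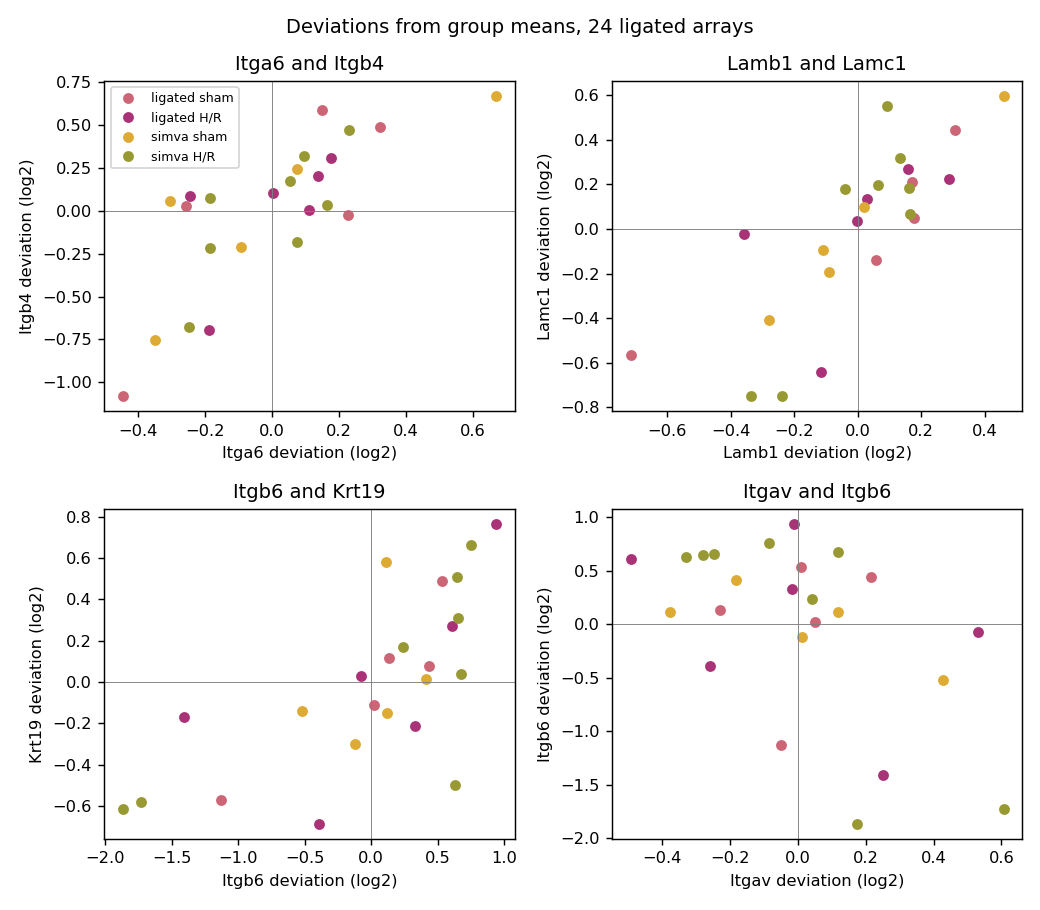
Deviation of each of the 24 ligated arrays from its group mean (log2) for 4 pairs of genes, coloured by group; simva stands for ligated rats given simvastatin. Points rise together for Itga6 with Itgb4 (r = 0.77), Lamb1 with Lamc1 (r = 0.79) and Itgb6 with Krt19 (r = 0.70), and Itgav with Itgb6 slopes down (r = -0.53).

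Of the 34 genes 12 had several probe sets, 51 in all. The second probe sets of Itgb1, Itga8, Itgb3bp, Itgav and Lamc1 differed in the same direction as the one used, by 1.40, 2.16, 1.37, 0.39 and 1.68 on the log2 scale in sham rats. Disagreement in direction was seen for Itga6 (1 of 3 others, -0.43), Itga9 (-0.19), Itgb5 (1 of 3 others, -0.16) and Lama5 (both others, -0.43 and -0.06). Each of those probe sets lay under the floor in control and ligated sham livers, so the Lama5 rise rests on 1 probe set. The second Lama4 probe set differed by 0.006, with 2.66 in both sham groups and under the floor, so the Lama4 rise also rests on 1. The other 22 genes had 1 probe set each, Itgb6, Itgb4, Lamb1, Lamb2 and Lamb3 among them. With the mean of all probe sets per gene, 24 members passed in sham rats and 21 in H/R rats.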

How the data were processed

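The deposited table holds 1 log2 signal per probe set and array, normalized by the authors with a method the labels do not name. Its log scale was inferred from a range of 1.51 to 13.79 and array medians of 3.97 to 4.29. Gene symbols came from the platform annotation: 19069 of 31139 probe sets had 1 symbol, 572 several and 11498 none listed here, and the last 2 kinds were left out.

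All 13439 genes were tested on 35 arrays with limma 3.58.1 in R 4.3.3, with 1 mean per group, moderated variances and Benjamini-Hochberg adjustment within each of 9 comparisons. On simulated data for ligation in sham rats, run on 13439 genes, this recovered 83% of changes of 1 and 97% of changes of 2 on the log2 scale. Covariation used 100000 permutations within groups, two-sided. Depth of reads does not apply, and the 5 to 8 arrays per group limit the precision. Groups came from the labels.

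The genes and lists were chosen with earlier results of these data known. Every gene of the rule is accounted for, and of each list of partner genes up to 4 with the smallest p in ligation in sham rats are named; Ilk, Ptk2 and Vtn were named after their values were seen. An "at least" fold sets the brighter mean against the mean, over arrays of the dimmer group, of the higher of the brightest nonspecific probe and the gene itself. Alternatives were another fit, normalization, centring, filter, array weights, mean of probe sets, leaving out single arrays, the title ending as a block, and, added after the data were seen, the comparison within title ending 13 and covariation without simvastatin sham replicate 1. Promoter windows are from RefSeq on GRCr8.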

Additional observations from a re-analysis of the deposited data

Results flagged for a closer look

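In each group of 5 to 8 arrays, the highest and lowest value of the 24 genes called in any comparison were set against the rest of the group by the gap to the nearest array over the range (Dixon's 95% value). Of 144 groups 12 had such an array, where chance gives about 1 in 20. Itga2b read 3.54 in simvastatin sham replicate 4, below the other arrays at 4.31 to 4.44. Itgad read 2.91 in ligated H/R replicate 4, above the other arrays at 2.51 to 2.62. Itgb1 read 8.86 in control sham replicate 5, below the other arrays at 9.01 to 9.07. Itgb3bp read 5.59 in control sham replicate 3, below the other arrays at 6.24 to 6.49. Itgb4 read 5.65 in ligated H/R replicate 3, below the other arrays at 6.35 to 6.65. Itgb5 read 8.67 in simvastatin sham replicate 1, above the other arrays at 7.45 to 7.74. Lama5 read 9.55 in simvastatin sham replicate 1, above the other arrays at 8.21 to 8.52. Lamb1 read 5.23 in control sham replicate 4, below the other arrays at 6.11 to 6.15. Lamb1 read 8.28 in ligated sham replicate 3, below the other arrays at 9.06 to 9.31. Lamb3 read 3.94 in ligated H/R replicate 3, below the other arrays at 5.33 to 6.03. Lamc1 read 8.47 in ligated H/R replicate 3, below the other arrays at 9.09 to 9.39. Lamc3 read 4.12 in control sham replicate 2, below the other arrays at 4.48 to 4.62. Ligated H/R replicate 3 accounts for 3 of the 12, in Itgb4, Lamb3 and Lamc1, and had the lowest mean of the cholangiocyte markers in its group, 7.55. Simvastatin sham replicate 1 accounts for 2, in Itgb5 and Lama5, and is the array with the GAPDH 3' minus 5' signal of 2.20; the part of that signal in these values was not tested. No difference between H/R effects passed for any of the 34 genes.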

How the results depend on the processing

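Across the alternatives the ligation counts stayed within 1.5 times those reported: 19 to 26 of 34 genes in sham rats and 19 to 27 in H/R rats, where the lowest counts come from a filter that left 26 members or from quantile normalization. Leaving out single arrays gave 23 to 26 and 20 to 22. Of 864 single-gene values, 842 kept direction and call, 22 lost the call and 0 changed sign; the lost calls were those of Itga7, Itga9, Itga11, Itgav and Lamc3, and the causes were not tested. Centring each array moved the median of all genes in sham rats from -0.043 to -0.231 and the members to 18 higher and 7 lower (all genes 2594 and 5128, from 3394 and 3008); quantile normalization gave 17 and 7 (2785 and 3755).

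For H/R in untreated ligated rats, array weights called 1 member (Itga11), and for simvastatin in sham rats 1 (Lama3), where leaving out single arrays gave 0 to 1; the other comparisons without a call stayed at 0. Without the 2 farthest arrays, r was -0.43 for Itgav and Itgb6, 0.48 for Itgal and Itgb2 and 0.29 for Lama3 and Lamb3, and with deviations by title ending 0.77 and 0.41 for the latter pairs, none past the threshold. Without simvastatin sham replicate 1 all 8 pairs passed, with r from -0.52 to 0.75. Between arrays of title ending 13, simvastatin-treated ligated against control livers gave 23 genes in sham rats, 21 of them shared with the untreated comparison, and 27 in H/R rats, 22 shared. Itgae was among the genes not shared, in sham and in H/R rats. No paired analysis was possible because the labels give no replicate numbers shared between groups. Signal near the nonspecific probes limits Itga5, Itga7, Itga11, Itgad, Itgb7, Lama1, Lamc3 and Itgb1bp2. In control arrays it also limits the folds of Lamb2 and Itga9. It limits the Itga2b folds in untreated ligated arrays, and the Itgam differences in control and ligated sham arrays.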
